A study of Danio rerio with 6 samples.

Results

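The genes examined here encode patterning transcription factors of the paired box, sine oculis, Eya, Dlx, Msx, Lmx, Lhx, Alx, Pitx, Prrx, Barx, Iroquois, Meis, Pbx and T-box families. Every gene name with the prefix of such a family was taken, which gave 107 of the 27126 names in the count table. The families were chosen with earlier results of these data known. One of the names, tbxas1, encodes the enzyme thromboxane A synthase and shares only its first letters with the T-box genes, so that 106 genes belong to the families. The expression of these genes was compared between ZMEL1 and ZMELR1, 2 zebrafish melanoma cell lines, in 3 RNA sequencing libraries of each. ZMEL1 was grown from 1 tumor of a fish that expressed oncogenic human BRAF from the mitfa promoter, which is active in melanocytes, and was homozygous for mutations of p53 and of mitfa, with mitfa given back by the miniCoopR rescue transgene. ZMELR1 is the population that grew out of ZMEL1 under prolonged exposure to a BRAF inhibitor, so that both lines share the BRAF transgene and the p53 and mitfa mutations. ZMEL1 was kept in DMSO and ZMELR1 in PLX4032 (vemurafenib) at 1 µM when RNA was taken, both at 28.5 °C with 10% serum, and the history of selection and the drug in the medium cannot be told apart in these libraries. Each line is a single culture lineage from 1 fish, and the study describes the 3 libraries of a line as independent biological replicates.

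These factors lay out the body plan. Paired box factors act at the neural plate border and in the neural crest, the embryonic source of melanocytes, and in mammals Pax3 acts upstream of the melanocyte factor Mitf. Sine oculis homeodomain proteins bind DNA and recruit Eya proteins, which are coactivators and phosphatases, in the placodes of the head, in muscle and in the kidney. Dlx and Msx factors pattern the pharyngeal arches and the sensory placodes, Meis and Pbx proteins are partners of the Hox factors, and T-box factors act in mesoderm, heart, limb and pharynx. Most zebrafish families hold pairs of copies, named a and b, that arose from an old duplication of the genome.

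The total count was between 42591832 and 83741911 in a library. These totals are above the number of reads per sample that the study states, and the sources used here do not say why. The counting intervals given below take each count as independent. Levels are given in CPM, the count of a gene relative to the total of its library after TMM scaling. CPM is not corrected for gene length, so levels are compared between libraries and not between genes. A gene was tested where it had at least 10 counts in 3 or more of the 6 libraries, and 42 of the 107 members were tested among 16644 genes. The words rose and fell are used of ZMELR1 against ZMEL1 where edgeR gave an adjusted p under 0.05, with the adjustment over all 16644 genes, and SE is the standard error of a log2 fold change. The melanocyte factors mitfa (519 ± 82.8 CPM in ZMEL1 and 891 ± 58.6 in ZMELR1, SD, n = 3 in each) and sox10 (417 ± 29.3 and 588 ± 26.2 CPM, SD, n = 3) were expressed in all 6 libraries, as the label of a melanoma line implies. For mitfa, reads of the mutated gene and of the rescue transgene were not separated. ZMELR1 replicate 3 stood apart from the other libraries. The median of 30 replication and mitosis genes in log2 CPM, each relative to its own mean, was -1.72 there. It was -0.139 and 0.23 in ZMELR1 replicates 1 and 2, and 0.624, 0.635 and 0.298 in ZMEL1 replicates 1, 2 and 3. All ZMELR1 libraries were thus below all ZMEL1 libraries. The summed level of these genes was 4030 to 5100 CPM in ZMEL1 and 1120 to 3570 CPM in ZMELR1. Their median log2 fold change was -0.822, and edgeR called none of them. Because the libraries are bulk RNA, fewer cells that express a gene and less RNA per cell cannot be told apart.

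Most of the 107 genes were silent or nearly so in both lines. No count was found for dlx4a, irx2a, irx4a, irx6a or pax4 in any library, and 52 members, these 5 included, had at most 9 counts in every library. In all, 79 members were under 1 CPM in the mean of both lines. At least 1 CPM was reached by 26 members in ZMEL1 and by 23 in ZMELR1, and 21 of them reached it in both. Neither Barx gene, neither Prrx gene and only 1 of 11 Iroquois genes, 1 of 10 Lhx genes and 1 of 3 Lmx genes passed the filter for the test, against 10 of 16 T-box genes and 5 of 6 Pbx genes. The 65 untested members had at most 28 counts in any library. The paired box family had 4 of 15 genes tested and the sine oculis family 4 of 13. The filter lies at 10 counts in 3 libraries. Just inside it, six4b had 6, 21 and 12 counts in ZMEL1 against 5, 18 and 3 in ZMELR1. Just outside it, irx4b had 3, 5 and 2 counts in ZMEL1 against 13, 28 and 8 in ZMELR1, and tbx19 had 28, 19 and 5 against 4, 3 and 1.

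Of the 42 tested members, 3 rose and 7 fell in ZMELR1. The genes that rose were the coactivator gene eya4, the sine oculis gene six4a and the T-box gene tbx20. The genes that fell were the LIM homeobox gene lmx1bb, six6b, alx4a, dlx3b, dlx4b, pitx1 and irx1a. Over all 16644 genes 579 rose, or 3.48%, and 440 fell, or 2.64%. The members' shares of 7.14% and 16.7% are to be read against these, with the filter in mind. lmx1bb and six6b had 10 counts or more only in ZMEL1 and six4a and tbx20 only in ZMELR1, so that these genes could enter the test only by differing, as 308 of all tested genes did. The median log2 fold change was 0.308 over the tested members and 0.026 over all tested genes, and 25 of 42 members had a value above 0 (59.5%, against 51.9% of all genes). The median size of the log2 fold change was 0.745 for the members and 0.377 for all genes. These sizes were not compared at like levels, and fold changes of low genes vary more. They also include the genes that entered the test through 1 line alone, so they are no result about the members. The background moved with single libraries: without ZMEL1 replicate 1, 2 or 3 in turn 166, 184 and 218 genes rose and 159, 183 and 249 fell, without ZMELR1 replicate 1 or 2 it was 184 and 318 higher and 116 and 188 lower, and without ZMELR1 replicate 3 it was 606 and 468.

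**Figure D1:**
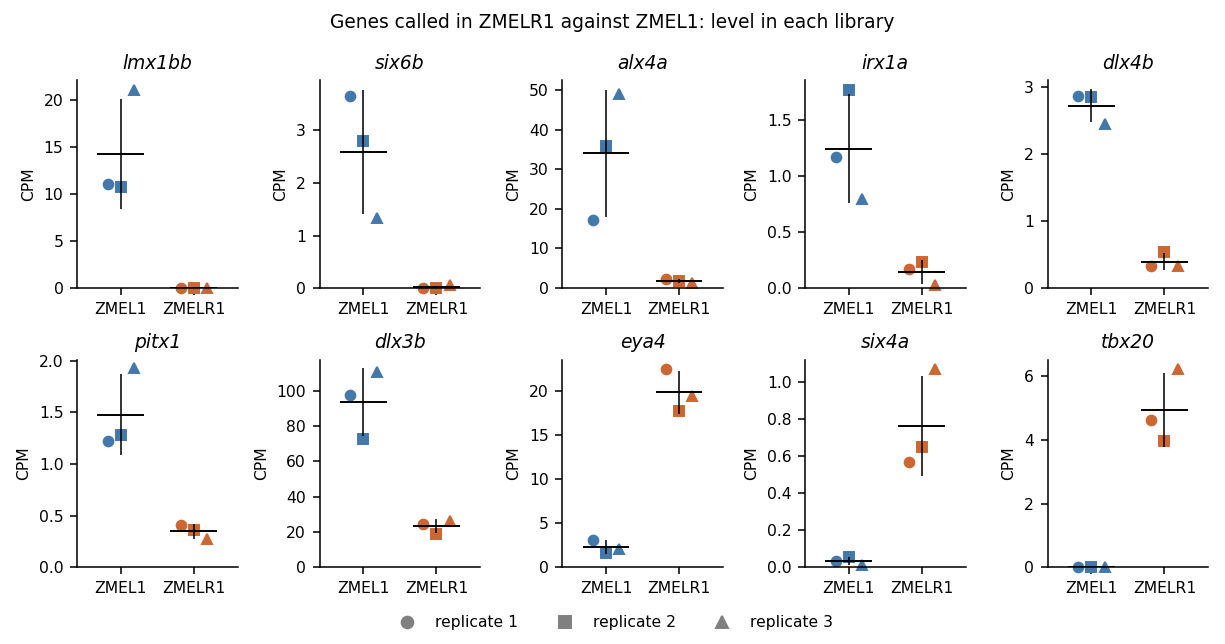
Level in CPM (y axis, linear, from 0, with its own scale in each panel) of the 10 members that rose or fell, in each ZMEL1 library (blue) and ZMELR1 library (orange). Point shapes mark the replicate number, and the horizontal and vertical lines are the mean and SD of 3 libraries. In every panel the 3 points of one line lie apart from the 3 of the other, which choosing genes by the test favors. For example, dlx3b was at 72.7 to 111 CPM in ZMEL1 against 19.0 to 26.4 in ZMELR1.

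lmx1bb was the member of smallest p. The gene encodes a LIM homeodomain factor of the midbrain-hindbrain boundary and the tissue around the eye, and mutations of human LMX1B cause nail-patella syndrome. It had 651, 752 and 1474 counts in ZMEL1 replicates 1, 2 and 3, and 2, 4 and 2 counts in ZMELR1, or 14.3 ± 5.87 against 0.0426 ± 0.00775 CPM (SD, n = 3). The lines were far apart in every library, and ZMEL1 replicate 3 was the highest. The ratio of summed counts per total was 343 (95% interval of the counting error 174 to 794), and edgeR gave an adjusted p of 0.000367, with 0.00104 to 0.00537 when single libraries were left out. lmx1bb entered the test through ZMEL1 alone. Its copy lmx1ba was low in both lines: it had 1, 3 and 4 counts in ZMEL1 against 5, 5 and 9 in ZMELR1 and was not tested.

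Of the other Lmx and Lhx genes only lhx4 was tested. In mammals Lhx4 acts in the pituitary and in motor neurons. Its level was 5.09, 3.83 and 3.57 CPM in ZMEL1 and 11.1, 6.78 and 15.4 CPM in ZMELR1. The lines did not overlap, and the log2 fold change of 1.41 (SE 0.338) had an edgeR adjusted p of 0.0571, and of 0.0242 with the replicate number as a block. Without ZMELR1 replicate 2 the adjusted p was 0.042, and DESeq2 gave 0.00246. lhx4 and the other members that edgeR did not call on all 6 libraries without the block are named after their values were seen, apart from those of at least 20 CPM and copies of named genes. The list of LIM cofactors (ldb, lmo and ssbp genes, of which Ldb proteins bind the LIM domains) also took isl genes, which are themselves LIM homeobox genes. It held 10 tested genes of 14, and none rose or fell by edgeR. At an unadjusted p under 0.05 it was 1 higher and 1 lower, and 1 was lower with DESeq2, 1 with the block and none with limma-voom. The share of all genes past an unadjusted p is not given here or for the lists below. Such counts are therefore no result about a list. The list had a median log2 fold change of -0.161 and a summed level of 316 to 352 CPM in ZMEL1 and 340 to 358 in ZMELR1.

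The sine oculis genes moved in both directions. six6b, a gene of the developing eye, fell: it had 215, 196 and 93 counts in ZMEL1 against 0, 1 and 2 in ZMELR1. No ZMELR1 library held more than 2 counts, and the ratio of summed counts per total was 160 with a counting interval of 54.5 to 779 (edgeR adjusted p = 0.00194). six4a rose: it had 2, 4 and 1 counts in ZMEL1 against 33, 59 and 43 in ZMELR1, a ratio of 20.2 with a counting interval of 9.56 to 51.3 (edgeR adjusted p = 0.00473). All ZMELR1 libraries were above all ZMEL1 libraries, but at 0.76 ± 0.268 CPM (SD, n = 3) the level in ZMELR1 was still below 1 CPM. Both calls remained as each library was left out, with adjusted p at most 0.0184 for six6b and 0.0347 for six4a. However, six6b entered the test through ZMEL1 alone and six4a through ZMELR1 alone. In mammals Six4 acts in muscle precursors.

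Of the copies of these genes, six4b was tested and gave no call, and six6a was not tested. six6a had 6, 6 and 5 counts in ZMEL1 against 5, 12 and 11 in ZMELR1, where six6b was at 2 counts or fewer. six4b had a log2 fold change of -0.56 (SE 0.544, edgeR adjusted p = 0.565), while six4a rose. The last tested relative, six4.3 (six5 in RefSeq), was at 6.9 ± 2.05 CPM in ZMEL1 and 8.66 ± 1.19 in ZMELR1 (SD, n = 3), and did not pass the test at an adjusted p of 0.491. The other 9 members of the family had at most 12 counts in any library.

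eya4, a coactivator of the sine oculis proteins that is tied to hearing and to heart muscle in humans, rose. It was at 3.16, 1.67 and 2.14 CPM in ZMEL1 and at 22.6, 17.8 and 19.5 CPM in ZMELR1. The lowest ZMELR1 library lay far above the highest ZMEL1 library, and the log2 fold change of 3.10 (SE 0.29) had an edgeR adjusted p of 0.00289. eya3 was expressed in both lines without a called difference, at 53.8, 74.8 and 57.9 CPM against 50.8, 64.9 and 55.3 CPM, a log2 fold change of -0.12 (SE 0.187, adjusted p = 0.715). eya2 was low, with 16, 27 and 21 counts in ZMEL1 against 49, 60 and 32 in ZMELR1. Its libraries did not overlap, and its log2 fold change of 1.24 had an edgeR adjusted p of 0.059, of 0.0359 with the block and of 0.02 by DESeq2. eya1 had at most 3 counts. The partners of this complex (Dach, Ski, Sobp and Groucho genes) had 12 of 12 genes in the table tested and none called by edgeR, DESeq2 or limma-voom, with 2 higher at an unadjusted p under 0.05 and 2 under the block. The list had a median log2 fold change of 0.264 and a summed level of 100 to 128 CPM in ZMEL1 and 132 to 145 CPM in ZMELR1.

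Of the 3 tested Dlx genes 2 fell, by edgeR, DESeq2 and limma-voom. dlx3b and dlx4b are neighbours on the chromosome and act together in the otic and olfactory placodes of the zebrafish. dlx3b was at 97.3, 72.7 and 111 CPM in ZMEL1 and at 24.6, 19.0 and 26.4 CPM in ZMELR1, and fell by 2.0 on the log2 scale (SE 0.221, edgeR adjusted p = 0.00444). dlx4b was at 2.87, 2.86 and 2.44 CPM in ZMEL1 and at 0.325, 0.54 and 0.322 CPM in ZMELR1, and fell by 2.73 (SE 0.321, adjusted p = 0.00532). In both genes all ZMELR1 libraries were below all ZMEL1 libraries, and the log2 ratio of dlx3b within replicate numbers 1, 2 and 3 was -1.98, -1.93 and -2.06. dlx4a, the copy of dlx4b, had no counts.

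dlx2a, a gene of the neural crest that fills the pharyngeal arches, was at 169, 214 and 112 CPM in ZMEL1 and at 135, 157 and 38.7 CPM in ZMELR1. The lines overlapped, and replicate 3 was the lowest library of each line. The log2 fold change was -0.59 (SE 0.49, edgeR adjusted p = 0.497) with all libraries and -0.18 without ZMELR1 replicate 3. Its copy dlx2b had at most 5 counts. Of the arch patterning genes that work beside Dlx, 12 of 15 in the table were tested, and 1 fell while none rose (1 and 3 with the block). The gene that fell was fgf8a, a signal of the arches and the midbrain-hindbrain boundary, with 66, 68 and 23 counts in ZMEL1 against 10, 6 and 3 in ZMELR1 (log2 fold change -2.95, SE 0.624, edgeR adjusted p = 0.0399). With limma-voom its adjusted p was 0.0501. hand2, a factor of the lower jaw and the heart, had no counts.

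The paired-like gene alx4a fell. Alx4 acts in the skull and the limb of mammals. It was at 17.1, 36.0 and 48.9 CPM in ZMEL1 and at 2.24, 1.86 and 1.16 CPM in ZMELR1, a log2 fold change of -4.26 (SE 0.46, edgeR adjusted p = 0.00417). The spread within ZMEL1 was wide, yet its lowest library was above the highest ZMELR1 library. Its copy alx4b had at most 6 counts, and alx1 at most 8.

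pitx1 and irx1a fell at low levels, and each call was lost when some single libraries were left out. Pitx1 directs the hindlimb in mammals and the pelvic fin in stickleback, and irx1a belongs to the Iroquois factors. pitx1 had 72, 90 and 135 counts in ZMEL1 against 24, 33 and 11 in ZMELR1, and fell by 2.06 on the log2 scale (SE 0.337, edgeR adjusted p = 0.0177). irx1a had 69, 124 and 56 counts in ZMEL1 against 10, 21 and 1 in ZMELR1, and fell by 2.95 (SE 0.558, adjusted p = 0.028). Neither gene's lines overlapped. The adjusted p of pitx1 was 0.0503 without ZMEL1 replicate 1, and 0.0712 and 0.0594 without ZMELR1 replicate 1 and 2. That of irx1a was 0.0876 and 0.0836 without ZMEL1 replicate 1 and 2, and 0.103 and 0.0518 without ZMELR1 replicate 1 and 2. The copy irx1b had at most 2 counts, and the other 10 Iroquois genes, irx1b included, were not tested. pitx3, a gene of the lens and of dopamine neurons, did not pass the test (log2 fold change 0.67, SE 0.376, adjusted p = 0.319).

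tbx20 was the T-box gene that rose. Tbx20 acts in the developing heart. It had 0 counts in all ZMEL1 libraries and 270, 362 and 251 counts in ZMELR1, or 4.62, 3.99 and 6.22 CPM. Thus tbx20 entered the test through ZMELR1 alone. Against a floor of 3 counts in each ZMEL1 library it was at least 109-fold higher in ZMELR1 (edgeR adjusted p = 0.00301, and at most 0.0184 as each library was left out). Intervals and bounds of this kind cover counting error only. Of the heart genes that act with T-box factors, 6 of 17 in the table were tested and none rose or fell by edgeR or limma-voom, with 1 higher at an unadjusted p under 0.05, 1 with DESeq2 and 1 with the block. Over the list the median was 0.203 on the log2 scale. gata4 had at most 5 counts, and nkx2.7 and hand2 none. nkx2.5 was at 4.3 ± 0.262 CPM in ZMEL1 and 8.57 ± 2.22 CPM in ZMELR1 (SD, n = 3), with an adjusted p of 0.0703, and of 0.022 with the block. Of the 10 heart muscle markers, 4 were tested and 1, the calcium channel gene ryr2b, fell. Among these markers 1 was higher and 1 lower by DESeq2, with the block and at an unadjusted p under 0.05. Their summed level was 9.9 to 11.1 CPM in ZMEL1 and 8.98 to 15.5 CPM in ZMELR1, and no marker was at 0 in all libraries.

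The copies tbx2a and tbx2b, relatives of a human gene that is amplified in some melanomas, were expressed in both lines, and neither was called by edgeR without the block or by limma-voom. tbx2a was at 33.3, 49.4 and 64.4 CPM in ZMEL1 and at 23.9, 31.3 and 28.1 CPM in ZMELR1. tbx2b was at 30.9, 42.2 and 36.3 CPM in ZMEL1 and at 45.2, 55.6 and 32.2 CPM in ZMELR1. The lines did not overlap in tbx2a and did in tbx2b. The log2 fold changes were -0.82 (SE 0.258, edgeR adjusted p = 0.112) and 0.28 (SE 0.236, adjusted p = 0.499), so that neither passed the test. With the block tbx2a did at 0.0264, and tbx2b did not at 0.292. DESeq2 gave 0.0427 and 0.611. The difference between the copies was not tested.

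Of the other T-box genes, tbx15 and tbx18 missed the threshold by edgeR on all 6 libraries and passed it with the block and by DESeq2 (adjusted p = 0.00114 and 0.0245). tbx15, which acts in skin and skeleton and shapes the dorsal coat color border in mice, was at 2.33, 1.87 and 3.24 CPM in ZMEL1 and at 7.36, 5.9 and 4.76 CPM in ZMELR1. Its log2 fold change was 1.28 (SE 0.304, edgeR adjusted p = 0.0559, and 0.0273 with the block), and without ZMELR1 replicate 3 the adjusted p was 0.0451. tbx18, a gene of the epicardium and the sinus node in mammals, had 13, 39 and 19 counts in ZMEL1 against 3, 9 and 3 in ZMELR1 (log2 fold change -2.15, adjusted p = 0.0589, and 0.0132 with the block). It entered the test through ZMEL1 alone. tbx1, a pharyngeal arch gene, was at 5.33 ± 0.729 and 7.78 ± 0.272 CPM (SD, n = 3) with an adjusted p of 0.171. The log2 fold changes of tbx3a, tbx6, tbx6l and tbx22 were 0.07, 0.63, 0.86 and -0.61, with adjusted p of at least 0.193. Without ZMELR1 replicate 3 the value of tbx3a was -1.29.

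**Figure D2:**
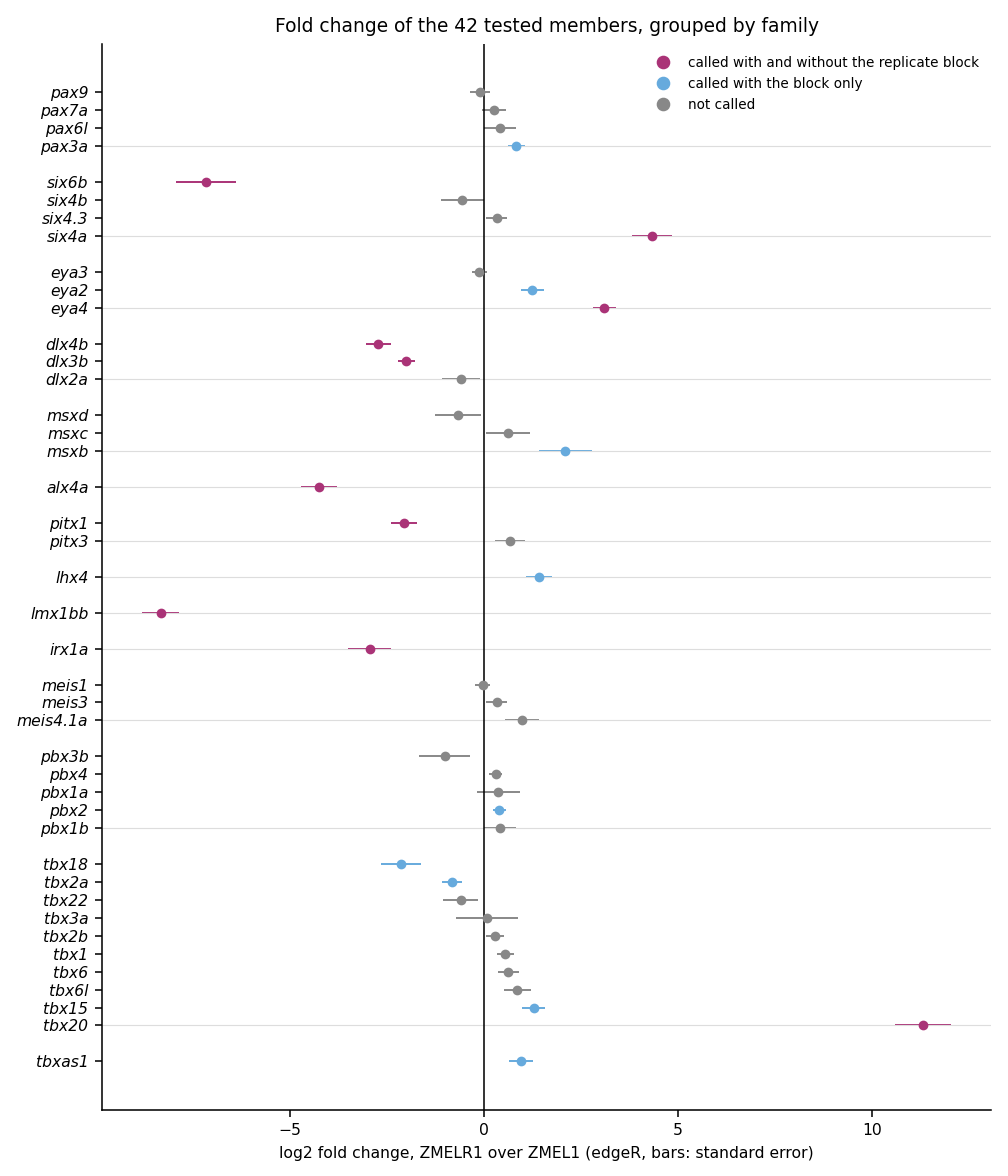
Log2 fold change of ZMELR1 over ZMEL1 (x axis) with its standard error for the 42 tested members, grouped by family (y axis), with colors for the genes that edgeR called with and without the replicate block (purple), called only with it (light blue) and not called (gray). lmx1bb lies farthest to the left at -8.34. The fitted value of tbx20, farthest to the right, depends on the prior count because ZMEL1 had 0 counts, and is no measure of its fold.

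pax3a was the paired box gene of smallest p, and no gene of the family was called by edgeR without the block or by limma-voom. It was at 65.5, 83.4 and 90.1 CPM in ZMEL1 and at 116, 128 and 180 CPM in ZMELR1. All ZMELR1 libraries were above all ZMEL1 libraries, and the log2 ratio within replicate numbers 1, 2 and 3 was 0.82, 0.62 and 1.00. The log2 fold change of 0.83 (SE 0.22) missed the threshold at an edgeR adjusted p of 0.0736, and passed it at 0.00997 with the block and at 0.0228 by DESeq2. Its copy pax3b had no counts in ZMEL1 against 4, 1 and 1 in ZMELR1. The other tested paired box genes gave no call. pax7a, which acts in the yellow pigment cells of zebrafish, was at 3.58 ± 1.17 and 4.26 ± 0.705 CPM (SD, n = 3, adjusted p = 0.65). pax9, a pharynx and tooth gene, was at 1.81 ± 0.289 and 1.69 ± 0.0372 CPM (adjusted p = 0.832), and pax6l had a log2 fold change of 0.42 (adjusted p = 0.579). The other 11 paired box genes had at most 11 counts in any library.

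The melanocyte genes are shown beside pax3a because mammalian Pax3 acts on Mitf. Of the 17 listed genes found in the counts, 14 were tested, of which 3 rose and 1 fell, and 9 rose and 1 fell with the block. DESeq2 called 7 higher and 1 lower, and limma-voom 3 and 1. Over all tested genes 3.48% rose and 2.64% fell, and 12.8% and 11.8% did with the block. The list was chosen with earlier results of these data known, so its counts are no test of the list. kita, the receptor of the Kit ligand, had a log2 fold change of 1.06 (adjusted p = 0.0353), and the melanin gene tyrp1b of 1.98 (adjusted p = 0.0423). slc24a5, an ion exchanger of the melanosome, had 3.97 (adjusted p = 0.0122). oca2, which encodes a transport protein of the melanosome membrane, fell by 2.45 on the log2 scale (adjusted p = 0.018). The median of the list was 0.908, and the summed level was 1310 to 1680 CPM in ZMEL1 and 2460 to 2920 CPM in ZMELR1. mitfa, with reads of the rescue transgene not separated, had a log2 fold change of 0.78 (SE 0.19, edgeR adjusted p = 0.0596, with the block 0.0194). Their part in the difference of pax3a was not tested.

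The Msx genes, which respond to BMP signals in the neural crest, were low and gave no call by edgeR or limma-voom, while DESeq2 called msxb. msxb (msx1b in RefSeq) had 7, 10 and 17 counts in ZMEL1 against 22, 37 and 62 in ZMELR1, and ZMELR1 replicate 3 was by far the highest at 1.54 CPM. Its log2 fold change of 2.10 (SE 0.676) had an edgeR adjusted p of 0.118, and of 0.0165 with the block. Without ZMELR1 replicate 3 the log2 fold change was 1.20 (adjusted p = 0.128). msxc and msxd had log2 fold changes of 0.62 and -0.67 with adjusted p of 0.534 and 0.527, and msxa and msxe had at most 5 counts. Of the BMP ligands, inhibitors and early targets 16 of 24 were tested. None was called by edgeR or limma-voom. At an unadjusted p under 0.05 it was 8 higher and 1 lower, with DESeq2 4 and 1, and under the block 7 and 1, and the list had a median of 0.854. Of all 16644 genes DESeq2 called 1252 higher and 1091 lower, and the block 12.8% and 11.8%. The share at an unadjusted p is not given, so that count cannot be read as particular to the list.

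The Meis and Pbx genes, the partners of the Hox factors, gave no call by DESeq2, limma-voom or edgeR without the block, and none was past an unadjusted p of 0.05. meis1 was at 69.4, 71.6 and 48.2 CPM in ZMEL1 and at 65.3, 63.8 and 55.2 CPM in ZMELR1, a log2 fold change of -0.04 (SE 0.194, edgeR adjusted p = 0.926). pbx4 was at 57.0, 62.5 and 49.6 CPM against 68.1, 78.5 and 61.1 CPM, and the lines overlapped (log2 fold change 0.30, SE 0.168, adjusted p = 0.322). pbx2 was at 48.6, 42.1 and 52.3 CPM against 61.5, 54.6 and 71.2 CPM, with no overlap (log2 fold change 0.39, SE 0.17, adjusted p = 0.214, and 0.0434 with the block). The other tested genes of these families, meis3, meis4.1a, pbx1a, pbx1b and pbx3b, had log2 fold changes between -1.02 and 0.97, and none passed either test.

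**Figure D3:**
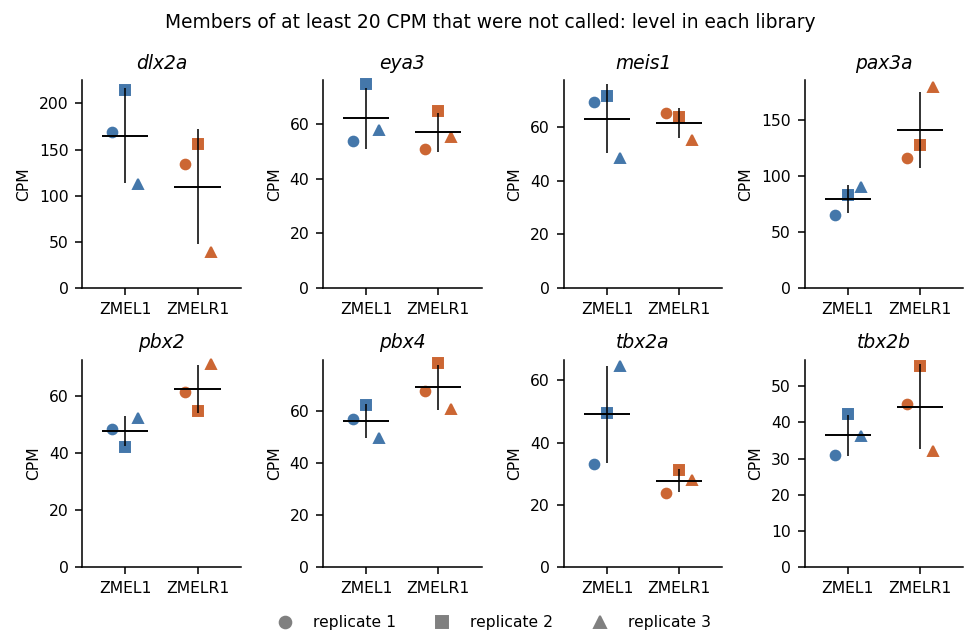
Level in CPM (y axis, linear, from 0, with its own scale in each panel) of the 8 members with at least 20 CPM in the mean of a line that did not pass the test, in each ZMEL1 library (blue) and ZMELR1 library (orange). Point shapes mark the replicate number, and the bars are the mean and SD of 3 libraries. pax3a, pbx2 and tbx2a show no overlap between the lines, and the other genes do. dlx2a is lowest in replicate 3 of each line, at 112 and 38.7 CPM.

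The replicate number mattered for the size of the set. With the number as a block 10 of the 42 tested members rose and 9 fell, against 12.8% and 11.8% of all 16644 genes. All 10 genes called without the block were among these 19, and the 9 added were eya2, lhx4, msxb, pax3a, pbx2, tbx15 and tbxas1, which rose, and tbx2a and tbx18, which fell. The enzyme gene tbxas1 was at 9.81, 6.16 and 12.2 CPM in ZMEL1 and at 17.2, 14.1 and 23.1 CPM in ZMELR1 (log2 fold change 0.95, adjusted p = 0.119, and 0.0102 with the block). Within the replicate numbers, all 3 log2 ratios were above 0 in 19 tested members, all were below 0 in 15, and 8 were mixed. The share over all tested genes is not given for this count, so it cannot be read as particular to the members. All ZMELR1 libraries were above all ZMEL1 libraries in 13 of the 42 members, against 16.9% of all tested genes, and below in 9, against 14.4%. In percent the members' shares were 31.0% and 21.4%. These counts and those with the block include lmx1bb, six6b and tbx18, which had 10 counts or more only in ZMEL1. They also include six4a and tbx20, which had them only in ZMELR1. Such genes could enter the test only by differing, as 308 of all tested genes did, so the shares are no result about the members.

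**Figure D4:**
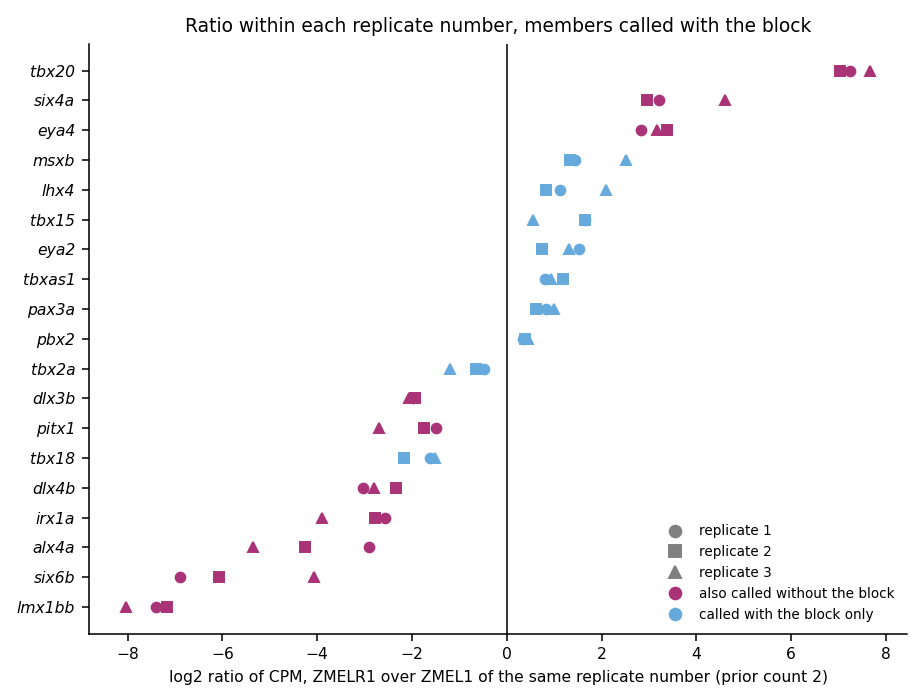
Log2 ratio of CPM, ZMELR1 over ZMEL1 of the same replicate number (x axis, prior count 2), for the 19 members that edgeR called with the replicate block (y axis), with point shapes for the replicate number. Purple genes are also called without the block and light blue genes only with it. All 3 points of each gene lie on the same side of 0, which choosing genes by the block favors. Those of dlx3b lie between -2.06 and -1.93.

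The order of the genes along the chromosomes, taken from RefSeq names of another assembly (GRCz12tu), puts several members close together. dlx3b and dlx4b are neighbours and both fell, while itga3b on the other side of dlx3b had no called difference (log2 fold change -0.46, edgeR adjusted p = 0.505). six6b lies near six4b, and six4a near six6a. In each place 1 of these genes moved, downward in six6b and upward in six4a, and the other gave no call or was not tested. irx1a lies beside irx2a and irx4a, which had no counts. Among all tested genes 3.48% rose and 2.64% fell, and the neighbours are too few to set a share against these. Over the 10 called members 15 of 20 nearest neighbours were tested, and 1 rose and 3 fell, with dlx3b and dlx4b counted as each other's neighbours. The others were ext2, an enzyme gene of heparan sulfate synthesis next to alx4a, which fell from 151 to 55.5 CPM (log2 fold change -1.45, adjusted p = 0.00489), and ppm1ab, a phosphatase gene next to six6b, which rose from 39.6 to 101 CPM (log2 fold change 1.35, adjusted p = 0.0442). The nearest neighbours of eya4, pitx1 and tbx20 that were tested gave no call. Where exons of different genes overlap and strand is not used, their reads cannot be told apart. Only the spans of the genes were compared here, not their exons. By span, in that assembly eya4 overlaps tbpl1, which had 846 to 2094 counts and no called difference. In the same way six6b overlaps prkchb, with 16 to 38 counts. tcf21 in eya4 and mvb12bb in lmx1bb had at most 2 counts. irx1a overlaps tars2, which was not analysed here.

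**Figure D5:**
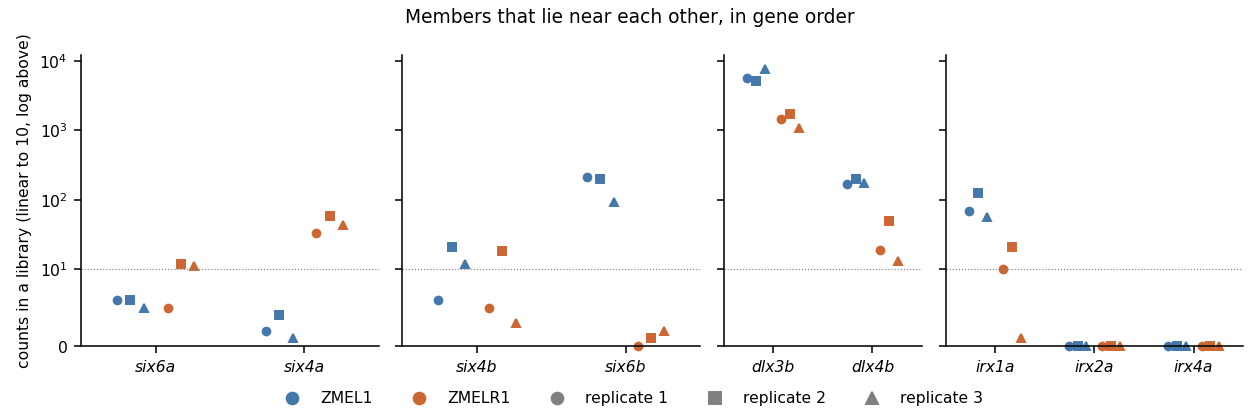
Counts in each library (y axis, linear up to 10 and logarithmic above) of members that lie near each other, with gene order on the x axis and panels for six6a with six4a, six4b with six6b, dlx3b with dlx4b, and irx1a with irx2a and irx4a. Blue is ZMEL1, orange is ZMELR1, and point shapes mark the replicate number. six6b and six4a differ between the lines in opposite directions, while dlx3b and dlx4b are both lower in ZMELR1.

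Markers of other cell types were counted because these factors also belong to other tissues. Over all 16644 genes 3.48% rose and 2.64% fell, and the lists are too short to set a share against these. Of 11 cartilage and bone markers found in the counts 6 were tested, 3 rose (runx2b, acana and sox9b, of which limma-voom missed sox9b at an adjusted p of 0.0501) and none fell, with summed levels of 10.1 to 14.2 CPM in ZMEL1 and 30.8 to 39.0 CPM in ZMELR1 and a median log2 fold change of 1.39. Most of these sums came from 1 gene, the skeletal factor runx2b. It went from 9.5 ± 1.98 to 28.5 ± 5.35 CPM (SD, n = 3, edgeR adjusted p = 0.0128), while the cartilage collagen gene col2a1a had at most 6 counts. Epithelium markers had 8 of 12 tested and 2 lower (krt4 and cldn7b), and 4 lower by DESeq2, with the block and at an unadjusted p under 0.05. Their median log2 fold change was -1.14, while their sums were 2050 to 2880 CPM in ZMEL1 and 2640 to 3320 CPM in ZMELR1. Skeletal muscle markers had 5 of 14 tested and 1 lower (myod1, which DESeq2 missed at an adjusted p of 0.0504), with sums of 4.24 to 7.48 and 6.92 to 11.5 CPM and no counts of myog. Leukocyte markers had 8 of 17 tested, 1 higher (cebpa, which limma-voom missed at an adjusted p of 0.0563) and 1 lower (btk), with sums of 17.5 to 22.1 and 14.9 to 41.6 CPM. Endothelium markers had 5 of 11 tested and 1 lower (fli1a), neuron markers 8 of 14 and none (1 lower by DESeq2 and at an unadjusted p under 0.05), and red blood cell markers 2 of 6 and none by any of these tools or at an unadjusted p under 0.05. Their summed levels were 4.65 to 4.78, 147 to 158 and 0.357 to 0.443 CPM in ZMEL1, and 4.06 to 7.71, 117 to 160 and 0.319 to 0.917 CPM in ZMELR1. The part of these markers, and of the 30 replication and mitosis genes (none called by edgeR or limma-voom, 6 lower by DESeq2, 8 at an unadjusted p under 0.05 and 11 with the block), in the members' differences was not tested.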

How the data were processed

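RNA of ZMEL1 and ZMELR1 was sequenced from polyA libraries, 3 of each line. Reads were aligned by the authors with TopHat2 to Zv9 and counted per Ensembl gene with HTSeq-count, and the deposited values are raw counts, whole numbers with no normalization. The strand setting is not given in the sources used here. In the deposited table, 17 names had been turned into numbers and held 0.0689% to 0.0943% of the counts of a library. These were kept.

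Counts were compared in R 4.3.3 with edgeR 4.0.16 (TMM factors 0.936 to 1.08, quasi-likelihood F test, cell line as the only term, Benjamini-Hochberg adjustment over 16644 genes with at least 10 counts in 3 or more libraries). Log2 CPM used a prior count of 2. The standard error is the log2 fold change divided by the square root of F. Ratios of low genes have a 95% interval of the counting error, and a line at 0 was set to 3 counts per library. Between replicates the chi-square per degree of freedom, a mean over the tested genes, was 202 to 355. Genes of many counts weigh most in it, and for these counting error is a small part of the spread. For genes of few counts the part of counting error is not given.

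Libraries of the same replicate number resembled each other across the lines. Deviations of log2 CPM from the mean of their line correlated at 0.508 to 0.587 between same-numbered libraries and at -0.506 to -0.0253 between others. Deviations sum to 0 within a line, so positive values for same numbers bring negative ones for the others. With 3 libraries in a line few matchings are possible, and the pairing was not tested. The sources do not say what a number shares, so values with the block stand beside a member's result where they change its call. For the gene lists they are given in part, and the block also changed calls in marker lists where it is not printed.

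Named genes are every member past the threshold, lmx1bb, eya4, every member of at least 20 CPM in the mean of a line and their copies, and up to 4 called genes of each list. Other names were chosen after their values were seen. The members and the 15 gene lists were chosen with earlier results of these data known. Alternatives were DESeq2 1.42.0, limma-voom (limma 3.58.1), other scalings and filters, the block, and leaving out libraries. The tests were tried on simulated data. RefSeq names matched 106 of the 107 members (not lhx8b), and figures used matplotlib 3.10.9. The authors' own test results and the genome sequencing were not used, and 1 item is not reported here.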

Additional observations from a re-analysis of the deposited data

How the results depend on the processing

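No called member changed direction under any alternative. The 10 members that rose or fell were all called by DESeq2, by limma-voom, with library size only or RLE factors, with a filter of at least 1 count in total, with filterByExpr, without replicate 3 of both lines, and with the older quasi-likelihood fit, which was chosen after seeing the data. DESeq2 called 1252 genes higher and 1091 lower, with 9 members higher and 9 lower, and gave pax3a and tbx2a adjusted p of 0.0228 and 0.0427. The members it added were eya2, lhx4, msxb, pax3a, tbx15, tbx18, tbx2a and tbxas1. With the replicate block 2129 genes rose and 1972 fell, with 10 and 9 members, and apart from the 9 added members it changed no member's call. A filter of at least 10 counts in every library called 294 higher and 169 lower, with 1 and 4 members, because it removes irx1a, lmx1bb, six4a, six6b and tbx20 from the test. As each library was left out, 166 to 606 genes rose and 116 to 468 fell, with 3 to 4 and 5 to 7 members. The 2 libraries left in a line are then assumed to vary like the other line. In those fits only irx1a (2 of 6 called) and pitx1 (3 of 6) were lost, lhx4 was gained without ZMELR1 replicate 2 and tbx15 without ZMELR1 replicate 3. lhx4 was also gained with library size only (adjusted p = 0.0429), tbx15 without replicate 3 of both lines (0.0416), and irx4b with filterByExpr (log2 fold change 2.27, adjusted p = 0.0284). Depth limits the 65 untested members, of which 13 reached 10 counts in 1 or 2 libraries. In a library 3 counts are 0.033 to 0.0743 CPM, and smaller levels cannot be told from 0.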
